A study of Mus musculus with 8 samples.

Results

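The interferon genes described here are 36 genes of interferon signaling and interferon response, listed by name: the receptor chains, transcription factors, RNA sensors and antiviral effectors. A gene was found by its symbol in the deposited tables, and where several loci carried the symbol the locus with the highest mean level was used. Of the 36 genes, 35 were found among 80155 loci, of which 39614 carry a gene symbol. Ifi27 was not found under that name. A locus with the older symbol Ifi27l1, which RefSeq lists as a synonym of Ifi27, is described apart. RNA-seq was made from whole hearts, freed of the atrial appendages, of outbred Hsd:ICR(CD-1) male mice at postnatal day 1 (P1, 4 hearts) and postnatal day 7 (P7, 4 hearts). Each heart came from its own mouse and gave 1 library of ribosome-depleted RNA, and the labels name no treatment and no engineered allele for any of them. The litters of the mice are not given. The question behind the comparison was what changes in the mouse heart during the first postnatal week, when its capacity to regenerate is lost.

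Cells secrete type I interferons (alpha and beta) when sensors such as RIG-I and MDA5 meet viral RNA. The interferon binds a receptor made of IFNAR1 and IFNAR2, and the kinases JAK1 and TYK2 on the receptor then activate STAT2 and other factors. Together with IRF9 they form ISGF3, a complex that binds the interferon-stimulated response element (ISRE) in the promoters of effector genes such as Isg15, the Ifit genes and the Oas genes. Type II interferon (gamma) acts on genes through the gamma-activated site (GAS). Many of these genes also have a low level of expression in tissues with no infection.

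The promoters of the genes were searched on both strands for the ISRE core GAAANNGAAA and for the GAS motif TTCNNNGAA, in the window from 250 bases before to 50 bases after each start in RefSeq (GRCm38.p6). At least 1 promoter was listed for 29 of the 35 genes, 35 promoters in all. The ISRE core was in 42.9% of these promoters (15 genes) and in 3.44% of all 32851 promoters of the table. The GAS motif was in 28.6% of them (10 genes) and in 8.30% of all promoters. The stretches below are shown because they come from the genes whose levels are given heart by heart, and capitals mark the motif. The first 3 hold the ISRE core, at the weakly expressed Isg15 and Gbp3 and at the abundant Ifitm2. The last 2 hold the GAS motif, at Ifnar2 and Ifit2. Positions are on GRCm38.p6, and each stretch is written 5′ to 3′ on the strand of its gene.
Isg15, chr4:156200860-156200911, minus strand: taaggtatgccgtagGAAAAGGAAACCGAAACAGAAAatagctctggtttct
Gbp3, chr3:142559984-142560029, plus strand: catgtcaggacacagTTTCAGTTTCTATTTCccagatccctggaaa
Ifitm2, chr7:140955983-140956022, minus strand: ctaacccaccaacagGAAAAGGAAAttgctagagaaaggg
Ifnar2, chr16:91372554-91372592, plus strand: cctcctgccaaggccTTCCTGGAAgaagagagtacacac
Ifit2, chr19:34550444-34550476, plus strand: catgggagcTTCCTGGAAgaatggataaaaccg
Isg15 held 3 overlapping copies of the core, Gbp3 held 2 and Ifitm2 held 1. In the RefSeq windows of Irf3 and Oasl2 neither motif was found. Eif2ak2 had an ISRE core downstream of the start and a GAS motif upstream of it, and the GAS motif of Ifi35 was downstream.

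Levels are given in FPKM as deposited, fragments scaled to transcript length and to the size of the library, so levels of different genes can be compared. Fragment totals per library were not used here, so no counting interval is given for a value. The low FPKM values rise in steps worth 1 fragment, from which the depth of the other 7 libraries came to between 61.3% and 80.7% of that of P1 replicate 1. The stages were compared with limma on log2(FPKM + 1) over the 43172 loci that reached 1 FPKM in some heart, 17960 of them annotated. A differentially expressed gene (DEG) had a Benjamini-Hochberg adjusted p under 0.05 over all tested loci and mean FPKM that differed at least 1.5-fold. Of the annotated loci, 1390 (7.74%) were DEG with a higher level in P7 and 72 (0.401%) with a lower level. After median-ratio scaling of the hearts the split was 1445 against 659. The median log2 difference over the annotated loci was 0.19 as deposited and 0.0095 after that scaling, so that the differences below stand on a general shift toward P7. Cardiomyocyte genes were high in every library (Myh6 from 2533 to 5502 FPKM), as the label whole heart requires.

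The interferon genes spanned about 4 orders of magnitude in level. The plot of FPKM by heart sets 3 groups apart. The Ifnar2 locus, Ifitm2 and Ifitm3 were at 10 FPKM or more in every heart, and Ifitm2 and Ifitm3 alone held between 39.1% and 64.9% of the summed FPKM of the 35 genes. In all, 15 genes reached 1 FPKM in every heart and 13 did so in some hearts. The other 7 genes, Oas1a, Oas2, Oas3, Ifit3, Mx1, Mx2 and Usp18, stayed below 1 FPKM in all 8 hearts and were left out of the limma test. These 7 are all effectors or a brake of the response, whereas both receptor chains and all 5 transcription factors were tested. The summed FPKM of the 35 genes was 239 to 293 at P1 and 370.0 to 473 at P7, and most of that difference lay in Ifitm2, Ifitm3 and the Ifnar2 locus.

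**Figure D1:**
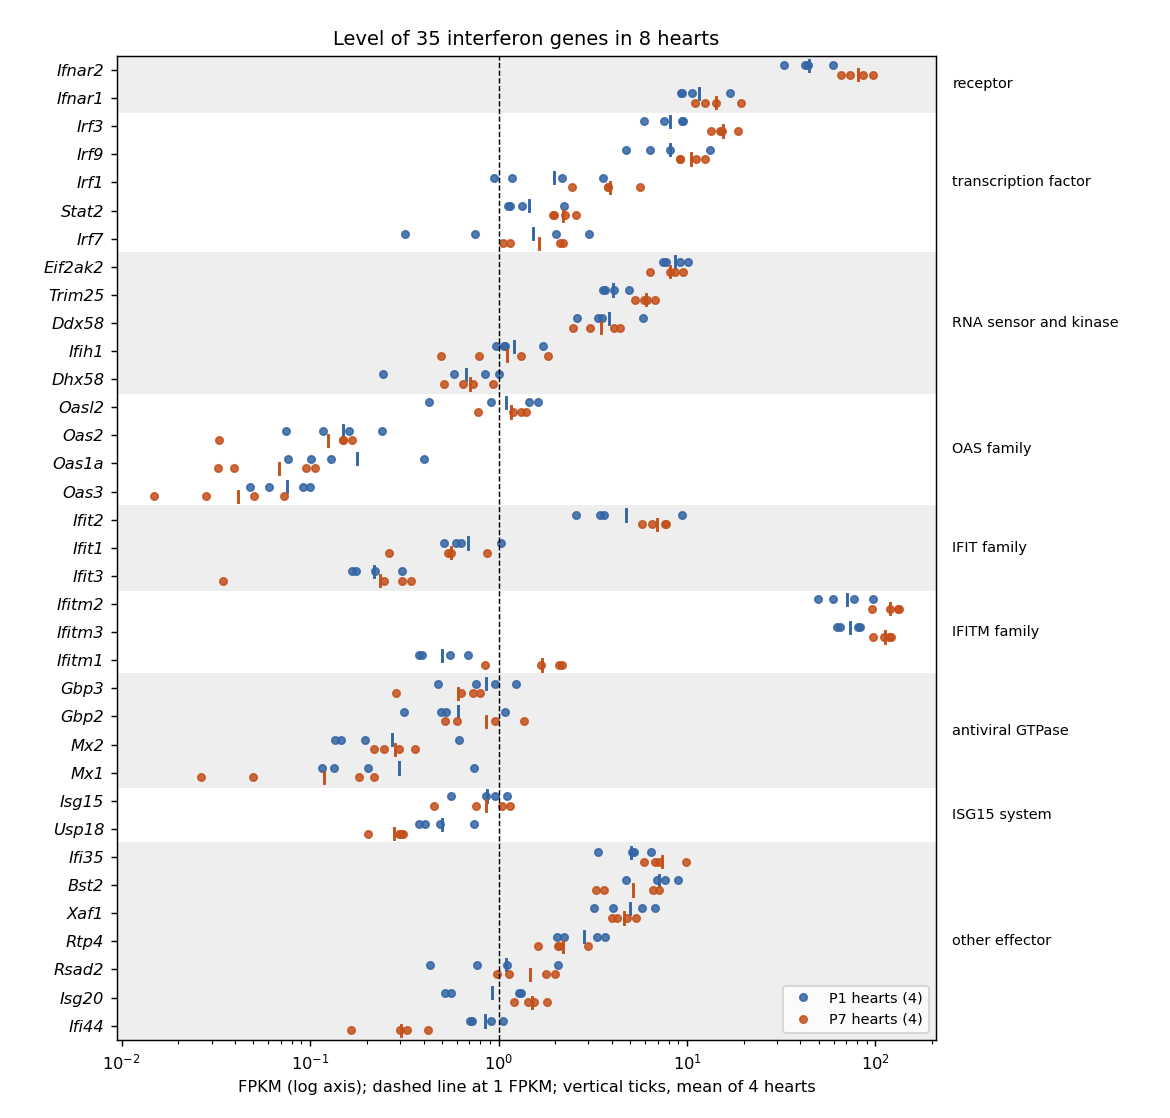
FPKM of the 35 interferon genes on a log axis, grouped by role, with a point for each of the 4 P1 (blue) and 4 P7 (orange) hearts and a vertical tick at each stage's mean. Ifitm2, Ifitm3 and the Ifnar2 locus lie to the right of all other genes, and 7 genes lie below the dashed line at 1 FPKM in every heart.

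Of the 28 genes tested, 2 were DEG, the Ifnar2 locus and Irf3, both higher in P7. That is 7.14% of those tested beside 7.74% of all annotated loci. No interferon gene was a DEG with a lower level in P7, where the share of all annotated loci was 0.401%, and 1 gene (Ifi44) was lower with an unadjusted limma p under 0.05. In all, 9 of the 28 genes had an unadjusted p under 0.05, beside 5328 of the 17960 annotated loci. The log2 difference was above 0 for 18 genes (64.3%, beside 67.6% of annotated loci) and below 0 for 10. Its median was 0.24 beside 0.19 over all annotated loci. All P7 hearts were above all P1 hearts for 5 of the 28 genes (17.9%), and the same held for 17.3% of the annotated loci. Every P7 heart was below every P1 heart for 1 of them (3.57%), and for 2.69% of the annotated loci. By each of these counts the interferon genes stood close to the background of the heart transcriptome. The number of DEG among them depended on single hearts. It was 4 without P1 replicate 4, 1 without P1 replicate 1, 1 without P7 replicate 2, and 0 without any one of the other 5 hearts. After GC correction of the hearts it was also 0. The number of annotated DEG, 1462 in the main fit, moved in the same fits. It was 2835 without P1 replicate 4, 820 without P1 replicate 1, 1012 without P7 replicate 2 and 167 to 725 without another heart. After GC correction there were 407 annotated DEG. The loss of DEG is therefore not read as particular to the interferon genes.

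**Figure D2:**
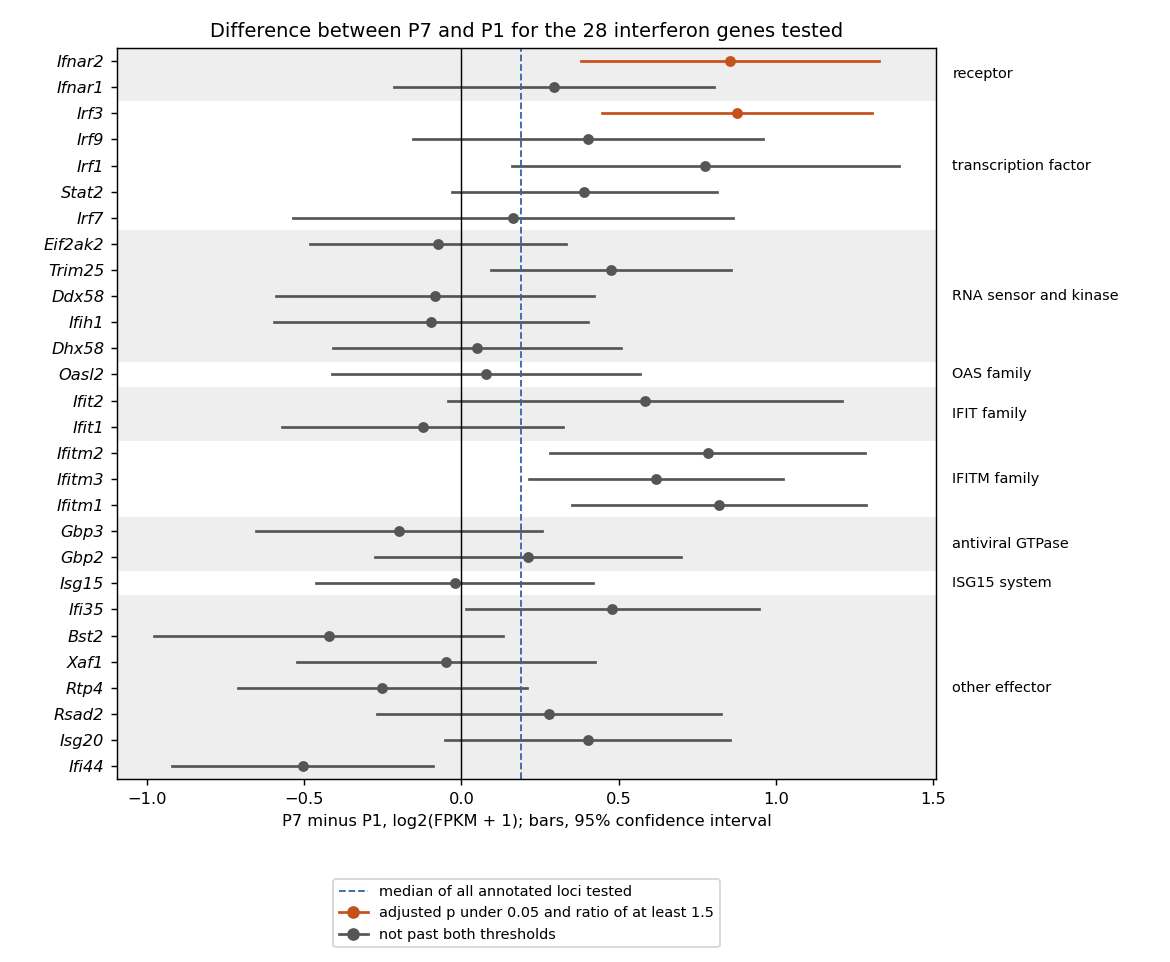
Difference between P7 and P1 on the log2(FPKM + 1) scale for the 28 interferon genes tested, with the 95% confidence interval from limma. The 2 DEG (Ifnar2 locus and Irf3) are in orange, and the dashed line marks the median of all annotated loci at 0.19.

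The receptor chains were among the more abundant members. Ifnar2 encodes the chain that binds interferon with high affinity, and its locus (chr16:91372783-91425834, GRCm38) is shared with Il10rb, the common chain of the receptors for IL-10 and lambda interferons, so that the reads of the neighbours cannot be told apart. The locus was at 42.4, 43.8, 32.7 and 59.5 FPKM in P1 replicates 1 to 4 and at 85.9, 65.8, 97.4 and 73.5 FPKM in P7 replicates 1 to 4. The lowest P7 heart was above the highest P1 heart. The mean rose from 44.6 ± 11.1 (SD, n = 4) to 80.6 ± 13.9 FPKM, with a log2 difference of 0.85 ± 0.22 (SE) and an adjusted p of 0.0496 by limma. The call was at the edge of the threshold. Without P1 replicate 4 the adjusted p was 0.0139, and without any one of the other 7 hearts it was between 0.0520 and 0.142. Ifnar1, the second chain, was at 9.29 to 16.99 FPKM in P1 and 10.99 to 19.4 FPKM in P7 (log2 difference 0.29 ± 0.23 SE, adjusted p = 0.480 by limma), and the stages overlapped. In bulk tissue, fewer cells of a type and less RNA per cell cannot be told apart, and this holds for every level given here.

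The interferons themselves were at the limit of detection. Of 21 ligand genes searched (alpha, beta, gamma, epsilon, kappa, zeta and lambda), 19 were found, and the highest value in any heart was 0.615 FPKM. No ligand locus reached 1 FPKM, so none was tested, and 4 were at 0 in all 8 hearts. Fragments were read as the smallest whole numbers that match the FPKM steps within 0.15. The 19 loci then held 48 fragments over the P1 hearts and 25 over the P7 hearts, from 3 to 22 in a heart. The heart with 22 of the 48 was P1 replicate 3. In that library 28662 loci reached 1 FPKM, against 20269 to 22292 in the others. The totals of the stages are therefore not read as a difference between them. Ifnk, which encodes interferon kappa, held the most, with up to 7 in a heart. Its assembled locus is long (chr4:34949074-35157484), and the part of neighbouring genes in its value was not tested. Ifnb1, which encodes interferon beta, held 3 fragments in P1 replicate 3, 1 in P7 replicate 2 and none in the other 6 hearts. The alpha genes are near-identical copies, so the share of each is uncertain.

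All 5 transcription factors had a positive log2 difference, and 1 was a DEG. Irf3 encodes a latent factor that the RNA sensors activate and that switches on Ifnb1. Irf3 was at 9.56, 7.54, 5.89 and 9.40 FPKM in P1 replicates 1 to 4 and at 15.3, 14.995, 18.6 and 13.3 FPKM in P7 replicates 1 to 4. The stages did not overlap, with a gap from 9.56 to 13.3 FPKM. The mean rose from 8.10 ± 1.73 to 15.6 ± 2.21 FPKM (SD, n = 4), a ratio of 1.92, with a log2 difference of 0.88 ± 0.20 (SE) and an adjusted p of 0.0323 by limma. Without P1 replicate 4 the adjusted p was 0.0168 and without P1 replicate 1 it was 0.0497. Leaving out any one of the other 6 hearts put it between 0.0546 and 0.113. After GC correction the log2 difference was 0.53 (adjusted p = 0.183 by limma), the largest move of this value under any alternative. The assembled locus (chr7:44986900-45017935) is longer than the Irf3 gene (chr7:44997648-45002848) and also spans the coding genes Bcl2l12 and Scaf1, whose part in the value was not tested.

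The other 4 factors overlapped between the stages. Irf1, a factor induced by interferon gamma, was at 0.949, 2.17, 1.181 and 3.57 FPKM in P1 and 3.79, 2.46, 5.65 and 3.79 FPKM in P7 (replicates 1 to 4 of each). Its heart-by-heart values are given because they were seen to differ among the P1 hearts. P1 replicate 4 lay inside the P7 range and the other 3 P1 hearts below it. The log2 difference of Irf1 was 0.78 ± 0.28 (SE, adjusted p = 0.168 by limma), and without P1 replicate 4 it was 1.01 (adjusted p = 0.0341), past the threshold. Stat2 and Irf9, which encode parts of ISGF3, had log2 differences of 0.39 and 0.40. Irf9 shares its locus with Rnf31 and reached its highest level, 13.2 FPKM, in P1 replicate 4. Irf7, the factor that amplifies the alpha genes, varied the most among the P1 hearts, from 0.320 to 3.03 FPKM, and its log2 difference of 0.16 was negative after GC correction. Its locus also spans Phrf1.

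The RNA sensors and the kinase PKR were expressed at moderate levels, with 0 DEG by limma and 1 gene (Trim25) at an unadjusted p under 0.05. Eif2ak2 encodes PKR, which halts translation when it binds double-stranded RNA, and its locus is shared with Gm6548. It was at 9.20, 7.42, 7.75 and 10.2 FPKM in P1 and at 8.15, 6.34, 9.52 and 8.67 FPKM in P7. The stages overlapped over most of their range. The log2 difference of Eif2ak2 was -0.07 ± 0.19 (SE, adjusted p = 0.823 by limma) and turned positive with GC correction. Trim25, a ubiquitin ligase that acts on RIG-I, is named after its values were seen, since every P7 heart (5.28 to 6.79 FPKM) was above every P1 heart (3.58 to 4.93 FPKM). Its log2 difference was 0.48 ± 0.18 (SE), with an adjusted p of 0.171 by limma. Ddx58 (RIG-I), Ifih1 (MDA5) and Dhx58 (LGP2) had log2 differences of -0.08, -0.10 and 0.05, each of which changed sign under another scaling or GC correction. P1 replicate 4 was the highest P1 heart for both Ddx58 (5.86 FPKM against 2.60 to 3.53 in the other 3) and Ifih1 (1.72 FPKM against 0.974 to 1.08). For Dhx58 it was the lowest, at 0.243 FPKM, and that locus also spans 4 other coding genes.

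Of the Oas genes, whose products make short oligoadenylates that activate RNase L, only Oasl2 reached 1 FPKM. Oasl2 was at 1.44, 0.430, 0.910 and 1.61 FPKM in P1 and at 1.19, 1.41, 0.776 and 1.31 FPKM in P7. The P7 values all fell inside the P1 range. Its log2 difference was 0.08 ± 0.23 (SE, adjusted p = 0.847 by limma). Oas1a, Oas2 and Oas3 were at 0.015 to 0.404 FPKM. For Oas1a the smallest whole numbers of fragments that match the FPKM steps were 4, 2, 4 and 10 in P1 and 1, 3, 3 and 1 in P7. The highest was in P1 replicate 4. The stages overlapped (exact permutation test over the hearts, two-sided, p = 0.143). The part of depth in this was not tested.

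The IFIT proteins bind viral RNA, and Ifit2 was the most abundant of the 3 measured. Ifit2 was at 3.64, 2.57, 3.43 and 9.43 FPKM in P1 and at 7.78, 5.79, 7.64 and 6.50 FPKM in P7. P1 replicate 4 was above all 4 P7 hearts, while the other 3 P1 hearts were below all of them. The log2 difference was 0.58 ± 0.29 (SE, adjusted p = 0.303 by limma) with that heart and 0.91 (adjusted p = 0.0142) without it. Ifit1 was at 0.262 to 1.03 FPKM, with a log2 difference of -0.12 (adjusted p = 0.724), and its sign changed under quantile normalization. Its locus also spans Ifit3b, Ifit1bl1 and Ifit1bl2, close relatives, so its value is uncertain. Ifit3 was at 0.034 to 0.344 FPKM and was not tested.

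The IFITM proteins sit in cell membranes and hinder the fusion of enveloped viruses. All 3 family members were higher in P7 by their means, none was a DEG by limma, and each had an unadjusted p under 0.05. Ifitm2 was at 76.6, 59.8, 97.2 and 49.6 FPKM in P1 and at 130.9, 119.3, 132.9 and 95.6 FPKM in P7. The lowest P7 heart fell just below the highest P1 heart. Its mean was 70.8 ± 20.8 FPKM in P1 and 119.7 ± 17.1 FPKM in P7 (SD, n = 4), with a log2 difference of 0.78 ± 0.23 (SE) and an adjusted p of 0.0867 by limma. Ifitm3 and Ifitm1 are given heart by heart because their stages were seen not to overlap. Ifitm3 was at 81.0, 62.7, 82.6 and 65.0 FPKM in P1 and at 111.4, 97.1, 121.1 and 118.1 FPKM in P7. Its log2 difference was 0.62 ± 0.19 (SE, adjusted p = 0.0923 by limma). Ifitm1 was much less abundant. It was at 0.391, 0.690, 0.552 and 0.378 FPKM in P1 and at 1.68, 0.851, 2.09 and 2.17 FPKM in P7, a ratio of means of 3.38. All 4 P7 hearts were above the P1 hearts, with P7 replicate 2 the nearest to them. The log2(FPKM + 1) scale understates the change of so low a gene. Its log2 difference was 0.82 ± 0.21 (SE, adjusted p = 0.0555 by limma), and without P7 replicate 2 it was 0.99 (adjusted p = 0.0355), the 1 interferon DEG of that fit. The log2 difference of all 3 stayed positive in each of the alternatives run. With a filter of at least 1 FPKM in every heart, which leaves fewer loci to adjust over, Ifitm2 and Ifitm3 were also DEG. With quality weights all 3 were DEG. After median-ratio scaling none was, with log2 differences of 0.54 (Ifitm2), 0.38 (Ifitm3) and 0.68 (Ifitm1). The adjusted p by limma were then 0.258, 0.237 and 0.0652. None was a DEG after GC correction either. Quantile normalization made Ifitm1 a DEG, but not Ifitm2 or Ifitm3 (adjusted p = 0.198 and 0.147 by limma).

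**Figure D3:**
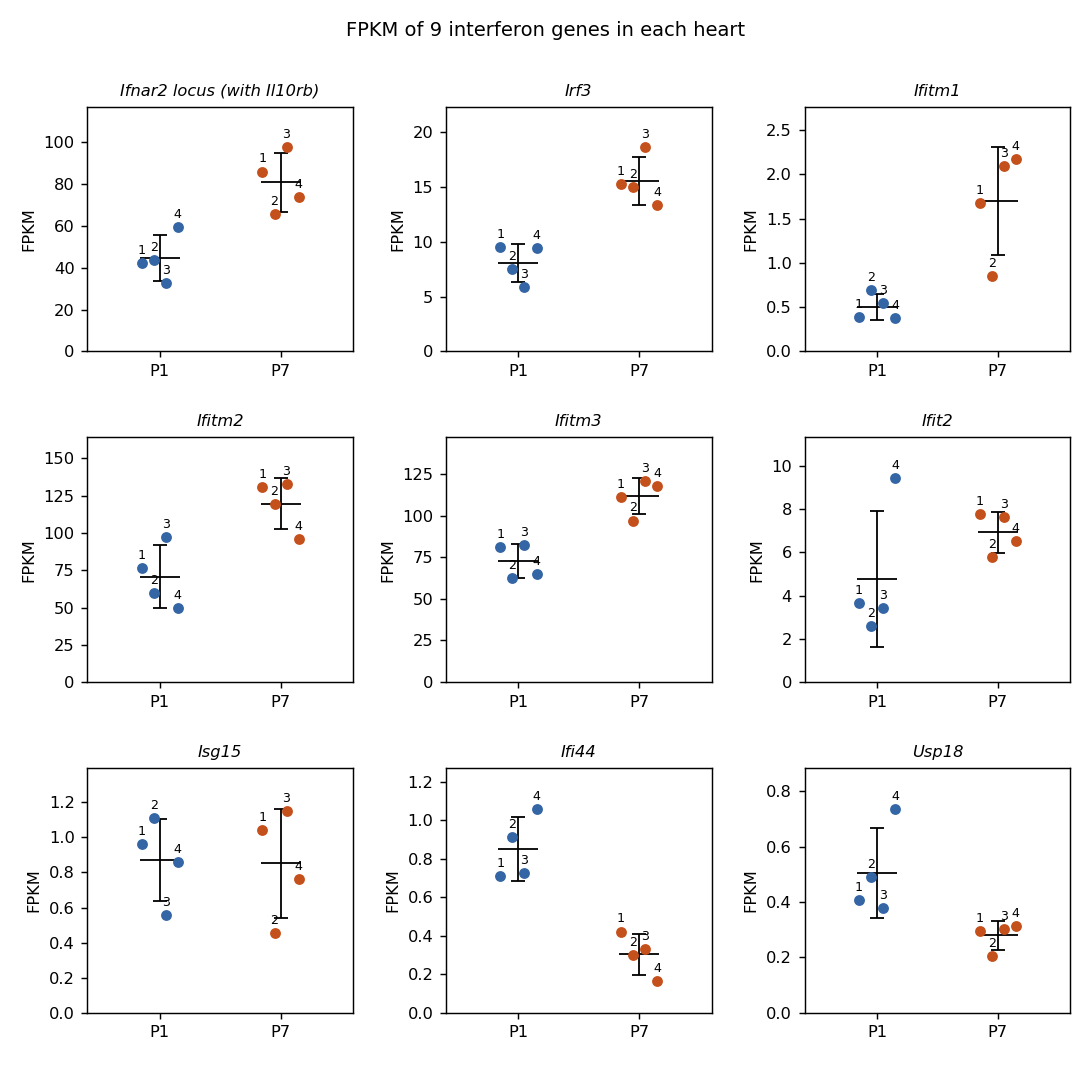
FPKM of 9 interferon genes in each heart, with the axis of each panel starting at 0. Points are hearts numbered by replicate, and bars give the mean and SD of 4 hearts. Ifnar2, Irf3, Ifitm1 and Ifitm3 show no overlap with P7 above, Ifi44 and Usp18 show none with P7 below, and P1 replicate 4 stands apart for Ifit2.

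The antiviral GTPases and the ISG15 system were low at both stages, with 0 DEG by limma and none at an unadjusted p under 0.05 among the 3 genes tested. Gbp3, which encodes a guanylate-binding protein, had the highest mean of the GTPases. Gbp3 was at 0.477, 0.957, 0.759 and 1.24 FPKM in P1 and at 0.732, 0.286, 0.799 and 0.632 FPKM in P7. The stages overlapped, and its log2 difference was -0.20 ± 0.21 (SE, adjusted p = 0.576 by limma). Gbp2 was at 0.313 to 1.36 FPKM. Mx1 and Mx2, dynamin-like GTPases that block virus replication, were below 0.4 FPKM in all hearts but P1 replicate 4, where they were at 0.738 and 0.614 FPKM. Isg15 encodes a ubiquitin-like protein that is joined to other proteins after interferon, and it carries the densest ISRE sequence printed above. It was at 0.961, 1.11, 0.557 and 0.858 FPKM in P1 and at 1.04, 0.457, 1.15 and 0.763 FPKM in P7. These values amount to 5 to 13 fragments a heart. The stages overlapped almost fully, with a log2 difference of -0.02 ± 0.20 (SE, adjusted p = 0.956 by limma) and a 95% confidence interval from -0.46 to 0.42.

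Usp18 removes ISG15 from proteins and restrains the receptor. It was not tested by limma, since it was below 1 FPKM throughout, and is given because its stages were seen not to overlap. Usp18 was at 0.407, 0.492, 0.378 and 0.737 FPKM in P1 and at 0.297, 0.203, 0.304 and 0.312 FPKM in P7. All P7 hearts were below all P1 hearts, by a narrow margin between 0.378 and 0.312 FPKM. The ratio of means was 0.554, and in the limma fit with no filter the log2 difference was -0.23 (adjusted p = 0.436).

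Of 7 other effectors, 0 were DEG by limma and 2 (Ifi35 and Ifi44) had an unadjusted p under 0.05, in opposite directions. Ifi35, an interferon-induced leucine zipper protein, had the highest mean. It was at 5.24, 5.10, 3.39 and 6.42 FPKM in P1 and at 7.06, 5.90, 9.83 and 6.79 FPKM in P7. The groups overlapped by 1 heart on each side, and the log2 difference was 0.48 ± 0.21 (SE, adjusted p = 0.257 by limma). Ifi44 is named after its values were seen. Ifi44 was at 0.710, 0.910, 0.725 and 1.06 FPKM in P1 and at 0.422, 0.299, 0.329 and 0.164 FPKM in P7. All P7 hearts were below all P1 hearts, and the ratio of means was 0.356. Its log2 difference was -0.51 ± 0.19 (SE, adjusted p = 0.181 by limma), negative in each of the alternatives in which it was tested. Bst2 (tetherin, which holds budding viruses at the membrane) was at 4.76 to 8.94 FPKM in P1 and 3.29 to 7.10 FPKM in P7, with a log2 difference of -0.42 (adjusted p = 0.386 by limma). Isg20, an exonuclease, and Rsad2, which encodes viperin, had positive log2 differences of 0.40 and 0.28. Rtp4 and Xaf1 had negative ones of -0.25 and -0.05, the latter positive after GC correction. The Ifi27l1 locus (chr12:103434189-103440239) was at 7.80 to 11.8 FPKM in P1 and 11.7 to 18.97 FPKM in P7, with a log2 difference of 0.64 ± 0.20 (SE, adjusted p = 0.109 by limma).

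The hearts of a stage differed as much as the stages for many of these genes. P1 replicate 4 was the highest P1 heart for 20 of the 28 tested genes (71.4%), as it was for 64.4% of all annotated loci tested. Of the 35 genes, 17 were higher in that heart than in any other of the 8. Its value over the mean of the other 3 P1 hearts had a median of 1.55 for the tested interferon genes and of 1.36 for all annotated loci. The excess was large for Mx1 (4.89 times), Oas1a (3.96 times), Mx2 (3.86 times), Irf7 (2.95 times) and Ifit2 (2.93 times). It was absent in the IFITM family, where the heart was at 0.637 (Ifitm2), 0.695 (Ifitm1) and 0.862 (Ifitm3) times the others. In P7, replicates 2 and 4 held the lowest P7 value for 29 of the 35 genes. The share of all annotated loci was not taken for these 29 or for the 17 genes above. Neither count is therefore read as particular to the interferon genes. The value of 1 fragment was largest in P1 replicate 4, at 1.63 times that in P1 replicate 1, and the part of depth in these differences was not tested.

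**Figure D4:**
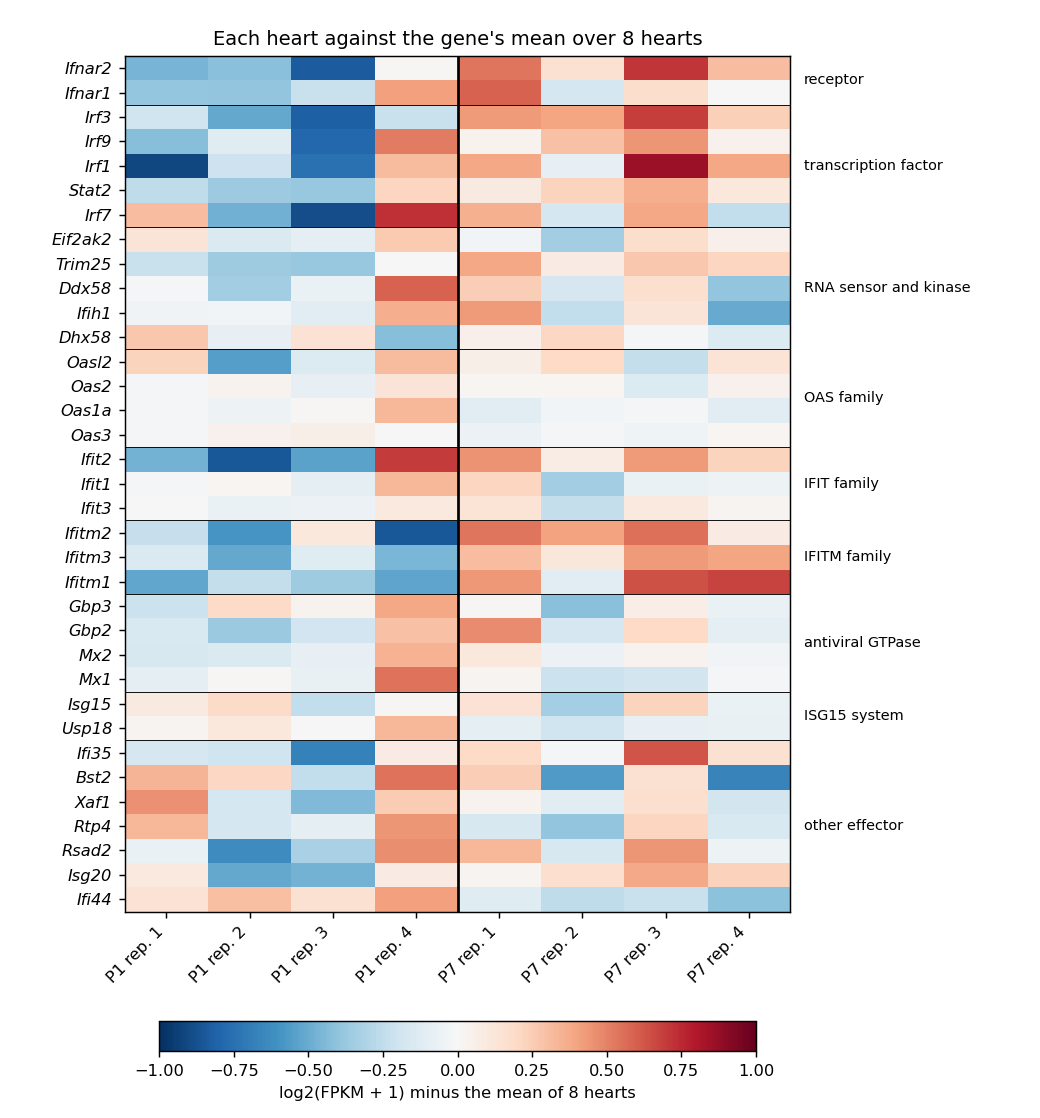
Deviation of each heart from the gene's mean over all 8 hearts, on the log2(FPKM + 1) scale (red above, blue below), for the 35 interferon genes. The column of P1 replicate 4 is red for most genes and blue for the 3 IFITM genes, while genes at low FPKM are pale because the scale compresses them.

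The printed motifs can be set beside the levels. Among genes with a listed promoter, the 15 with an ISRE core had a median of mean FPKM of 1.16, and the 14 without it had one of 4.92. Of the genes with the core 12 were tested, with 0 DEG by limma and a median log2 difference of -0.05 (range -0.42 to 0.78). All 14 without it were tested, with 2 DEG and a median of 0.44 (range -0.51 to 0.88). Of all annotated loci tested 7.74% were DEG with a higher level in P7, and their median was 0.19. Beside that share, 0 and 2 DEG in groups of this size are not read as a contrast. Both DEG, the Ifnar2 locus and Irf3, are at loci that also span other coding genes. The genes with the core are mostly effectors such as Isg15, Ifit1, Rsad2 and Bst2, and those without it include both receptor chains and 4 of the 5 transcription factors. Ifitm2 and Ifitm3 were the exceptions at the high end, with the core and log2 differences of 0.78 and 0.62. The groups differ in level as well as in motif, and no test was made of the difference. A match says nothing of binding in these hearts.

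**Figure D5:**
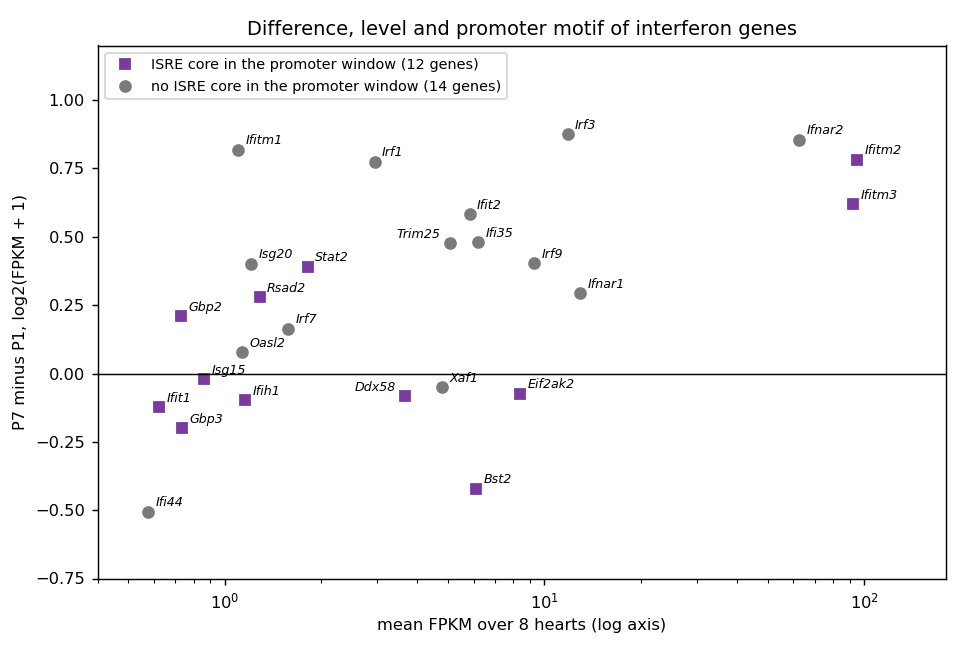
Difference between P7 and P1 (log2(FPKM + 1) scale) against mean FPKM over 8 hearts (log axis) for the 26 tested interferon genes with a listed promoter. Squares mark the 12 genes with the ISRE core in the promoter window and circles the 14 without it, which have medians of -0.05 and 0.44.

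Other genes of the pathway were read from the same fit. Of 111 listed genes 107 were found. Leaving out Il10rb, which shares the Ifnar2 locus, these were 104 loci, of which 69 were tested. Of these, 10 were DEG with a higher level in P7 (14.5%, beside 7.74% of annotated loci) and 0 were DEG with a lower level (beside 0.401%). An unadjusted limma p under 0.05 was found for 21 of the 69, beside 5328 of the 17960 annotated loci. The median log2 difference of the 69 was 0.25. It was above 0 for 53 (76.8%, beside 67.6% of annotated loci) and below 0 for 16. By role, the DEG were 4 of 16 genes of nucleic acid sensing, 3 of 34 other stimulated genes, 1 of 6 brakes, 1 of 5 other IRF genes, 1 of 3 other receptor chains and 0 of 5 JAK-STAT genes. The sensing genes were Mavs, the mitochondrial adaptor of RIG-I and MDA5, Myd88 and Ticam1, adaptors of Toll-like receptors, and Ikbke, a kinase that can activate IRF3. Mavs rose from 5.95 ± 2.01 to 11.98 ± 2.17 FPKM (SD, n = 4, adjusted p = 0.0409 by limma) and Myd88 from 3.35 ± 0.918 to 7.92 ± 2.58 FPKM (adjusted p = 0.0323). Ikbke rose from 0.726 ± 0.216 to 1.86 ± 0.291 FPKM (adjusted p = 0.0485). The Ticam1 locus, shared with Plin3, rose from 10.4 ± 4.28 to 25.6 ± 4.87 FPKM (adjusted p = 0.0210).

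The remaining 6 DEG of the pathway came from several roles. Ifngr2, a chain of the interferon gamma receptor, rose from 16.5 ± 6.87 to 34.7 ± 6.71 FPKM (SD, n = 4, adjusted p = 0.0464 by limma). Socs3, an inhibitor of JAK kinases, rose from 1.69 ± 0.275 to 4.12 ± 0.803 FPKM (adjusted p = 0.0225), and Irf2bp1, a corepressor that binds IRF2, from 6.07 ± 0.795 to 12.7 ± 0.914 FPKM (adjusted p = 0.0150). Psmb8, a subunit of the immunoproteasome, and Ifi30, a lysosomal thiol reductase, had adjusted p of 0.0330 and 0.0332. The Ifitm10 locus is shared with the far more general lysosomal protease gene Ctsd and rose from 92.0 ± 29.6 to 213.7 ± 40.4 FPKM (adjusted p = 0.0225). Among abundant genes that were no DEG, Stat3 was at 23.9 ± 6.75 FPKM in P1 and 37.2 ± 4.60 FPKM in P7, Irf2bp2 at 40.5 ± 11.6 and 71.6 ± 18.2 FPKM, and Ptpn2, a phosphatase that acts on JAK kinases, at 20.6 ± 4.59 and 16.7 ± 2.67 FPKM. With single hearts left out the number of DEG of the pathway was 0 when P1 replicate 2, P7 replicate 1 or P7 replicate 3 was left out, 1 without P1 replicate 3, 4 without P1 replicate 1 or P7 replicate 4, 7 without P7 replicate 2 and 13 without P1 replicate 4, and it was 2 after GC correction.

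Some markers of other cell types of the heart differed between the stages as well, in both directions. For the counts below, 7.74% of annotated loci were DEG with a higher level in P7 and 0.401% with a lower level. Of 11 leukocyte genes 10 had a positive log2 difference, beside 67.6% of annotated loci. Only 1 of the 11, Lyz2, was a DEG (9.09%), a share near that of all annotated loci. Lyz2 was at 12.02 to 15.6 FPKM in P1 and at 28.6 to 39.6 FPKM in P7. The summed level of the 11 was 43.9 to 54.5 FPKM in P1 and 73.3 to 101.5 FPKM in P7. Of 6 fibroblast genes 3 were DEG with a higher level in P7 (summed level 672 to 1298 FPKM in P1 and 1210 to 1563 FPKM in P7), and of 6 endothelial genes 2 were (91.03 to 153 FPKM and 124 to 189 FPKM). Within these lists Emcn, an endothelial gene, was lower in all P7 hearts than in any P1 heart (log2 difference -0.43), and Postn, a fibroblast gene, had a log2 difference of -0.19, neither of them a DEG. Of 4 smooth muscle genes 1, Cnn1, was a DEG with a lower level in P7 (ratio of means 0.434), and Acta2 was lower in all P7 hearts (ratio of means 0.527), with a summed level of 251 to 529 FPKM in P1 and 132 to 247 FPKM in P7. Siglech, which marks plasmacytoid dendritic cells, the main source of interferon alpha, was at most at 0.10 FPKM. The other 3 genes of that list, none of them a DEG, were higher. Ccr9 was at 1.31 to 6.33 FPKM, Bst2 (itself an interferon gene) at 3.29 to 8.94 FPKM and Tcf4, a broadly expressed factor, at 39.9 to 71.8 FPKM. The assembled locus of Ccr9 is long (chr9:123635388-123851899), and the part of neighbouring genes in its value was not tested. Of 9 lymphocyte and thymus genes 0 were DEG by limma and 7 stayed below 1 FPKM, among them Cd3e. The 2 that reached it were Cd3g, at 0.209 to 2.78 FPKM, and Rag1, at 31.2 to 55.7 FPKM. The locus of Rag1 is shared with B230118H07Rik, so that their reads cannot be told apart. Of 6 cardiomyocyte genes 0 were DEG by limma and 2 had an unadjusted p under 0.05. Alb, a liver gene, was at 40.3 FPKM in P1 replicate 1, at 23.7 FPKM in P1 replicate 3 and at 5.63 FPKM or less in the other 6 hearts. The part of these cell types in the differences of the Ifnar2 locus, Irf3 and the IFITM genes was not tested.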

How the data were processed

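Hearts of 4 P1 and 4 P7 male mice were grouped by the stage in their labels. The authors deposited FPKM per locus, made by their sequencing provider from an alignment to GRCm38 and Ensembl gene models. The aligner is not given in the sources used here, nor is the use of strand. Fragment counts were not used here, so precision rests on the replicates. The FPKM were compared on the log2(FPKM + 1) scale with limma 3.58.1 in R 4.3.3 (lmFit, eBayes with trend, all 8 hearts, no covariates), with Benjamini-Hochberg adjustment over 43172 loci. Single values were compared with a two-sided exact permutation test over 70 assignments of the hearts. Other steps used Python 3.11.15 with numpy 2.4.6 and pandas 2.3.3. Scripts were tested on simulated data. Values are given heart by heart for DEG and for the most abundant gene of each role, and for others where stated. The members and lists were chosen with earlier results of these data known. Alternatives were another pseudocount, filters, scalings, a replicate block, quality weights, no trend and each heart left out. GC correction (lowess, span 0.3, GENCODE M21 transcripts) was added after seeing the data. Of the 111 pathway genes, 4 were not analysed here.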

Additional observations from a re-analysis of the deposited data

Results flagged for a closer look

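In 8 of 72 groups of 4 hearts 1 heart lay far from the other 3, by a gap to its nearest neighbour that took a larger part of the whole range than Dixon's 95% critical value. For normally distributed values chance alone gives about 1 in 20, or 3.6. FPKM need not be distributed so, and the rate over all annotated loci was not taken. The 8 are therefore not read as an excess. In 6 of the 8 the heart was P1 replicate 4, on the high side. The gap was 0.831 of the range for Ifnar1 (16.99 FPKM against 9.29 to 10.6 in the other P1 hearts), 0.859 for Ifih1 (1.72 against 0.974 to 1.08 FPKM), 0.845 for Ifit2 (9.43 against 2.57 to 3.64 FPKM), 0.841 for Oas1a (0.404 against 0.0765 to 0.128 FPKM), 0.861 for Mx1 (0.738 against 0.116 to 0.202 FPKM) and 0.873 for Mx2 (0.614 against 0.135 to 0.196 FPKM). The other 2 were low hearts at P7. The gap was 0.869 for Oas2 in P7 replicate 3 (0.0328 against 0.149 to 0.167 FPKM) and 0.858 for Usp18 in P7 replicate 2 (0.203 against 0.297 to 0.312 FPKM).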

How the results depend on the processing

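The 1462 annotated DEG became 620 with no filter, 2573 with a filter on every heart, 2951 with quality weights, 941 with no trend, 407 with GC correction, and 167 to 2835 with 1 heart left out. The 2 interferon DEG became 0 with no filter, 4 with the filter on every heart, 5 with quality weights, 1 with no trend, 0 with GC correction, and 0 to 4 with 1 heart left out. The 10 DEG among other pathway genes became 3 with no filter, 6 with no trend, 2 with GC correction, and 0 to 13 with 1 heart left out. A pseudocount of 0.1, median-ratio scaling and quantile normalization kept these counts within 1.5 times.

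Same-numbered hearts did not deviate together (correlations of -0.08, 0.16, -0.18 and -0.03), and the main fit did not pair the hearts by number. The litters are not given, and these correlations cannot show whether same-numbered hearts shared one. With a replicate block there were 1052 annotated and 0 interferon DEG, and with the replicate block and GC correction 385 annotated, 0 interferon and 1 other pathway DEG.

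Genes with a difference near 0 changed sign. Oasl2 was at -0.0230 after median-ratio scaling and from -0.0938 to 0.196 with 1 heart left out, and Isg15 was at 0.0661 after quantile normalization and from -0.107 to 0.0892 with 1 heart left out. Eif2ak2 was at 0.00954 with quality weights, at 0.151 with GC correction, with or without the replicate block, and from -0.144 to 0.0287 with 1 heart left out. The causes were not tested. Genes below 1 FPKM rest on few fragments a heart, which limits what can be said of them.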
